A study of Mus musculus with 12 samples.

Results

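The comparison set sorted cortical astrocytes at day 60 after experimental stroke against those at day 21, to ask how far the chronic state moved over those 39 days. It used 4 of the 12 libraries, chosen by their labels: day 21 replicates 1 and 2 and day 60 replicates 1 and 2 (n = 2 per time). Both groups were WT C57BL/6J mice in which the distal middle cerebral artery was tied off for good and both common carotid arteries were then closed for 7 min. Nothing in the labels separates them except the day, so time after stroke and any difference in age cannot be told apart. Sham mice, used here only for reference levels, had a skull surface lesion alone, and the day at which they were taken is not given in the sources used here. The animals' ages, the sort marker and whether a library pooled animals are not given either. The labels do not say that replicates came from separate animals. The p-values thus measure only the spread between samples of a group, pooled over all 12 libraries, and that spread may be technical.

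Astrocytes answer ischaemia by raising intermediate filament proteins such as Gfap, by secreting complement, cytokines and matrix proteins, and by forming a border around the lesion core, while microglia, blood-borne myeloid cells and fibroblasts gather in and near the core. The border persists long after the acute reaction. The choroid plexus, the secretory epithelium of the ventricles that makes cerebrospinal fluid, and the ciliated ependyma that lines their walls have transcripts of their own.

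The day 21 libraries held 15772542 and 122366362 counts and the day 60 libraries 15875944 and 152838848, so replicate 2 was the deeper at both times. Levels in CPM, counts scaled to the TMM-adjusted library total, are given throughout in the order day 21 replicate 1, day 21 replicate 2, day 60 replicate 1, day 60 replicate 2. The 30 astrocyte identity genes listed were all measurable, and their summed share of counts was 0.578% and 0.471% at day 21 and 0.697% and 0.584% at day 60, below the 1.69% and 1.51% of sham. Libraries at both times also carried markers of other cells. The fibroblast list took 3.21% and 4.99% of counts at day 21 and 2.09% and 2.79% at day 60, against 0.0100% and 0.0113% in sham, and the macrophage and monocyte list 0.337%, 0.423%, 0.26% and 0.301% against 0.00813% and 0.0343% in sham. The day 21 libraries stood apart from all 10 others in the ependyma and choroid plexus list, at 0.318% and 0.378% of counts against 0.0126% to 0.125%. In RNA from many cells, fewer cells of a type and less RNA per cell cannot be told apart, and this holds for every marker list below.

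No gene changed between day 21 and day 60 at an adjusted p under 0.05 (edgeR quasi-likelihood F test, Benjamini-Hochberg adjustment over 15635 genes; 0 of 15635, or 0% called). The lowest adjusted p was 0.0838, shared by 8 genes (Fcrls, Prlr, Cst7, Folr1, Spint1, Car12, Ncf1 and Rasal3), all of them lower at day 60. At an unadjusted p under 0.05 there were 847 genes (5.42%), 621 lower at day 60 (3.97%) and 226 higher (1.45%). Such a total lies near what that threshold admits when no gene changes, so the 847 are no list of changed genes. Leaving out 1 library moved this number of 847 to 388 (day 21 replicate 1), 513 (day 21 replicate 2), 564 (day 60 replicate 1) or 1445 (day 60 replicate 2). The same fit called 4774 genes for day 1 against sham, 558 for day 3 against day 1, 983 for day 7 against day 3 and 69 for day 21 against day 7.

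Same-numbered libraries deviated together across the series. Replicate 2 was the deeper in every group, so pairing of samples and depth cannot be told apart in that number. With the replicate number as a block 21 genes changed (0.134%), 17 of them lower at day 60 (0.109%) and 4 higher (0.0256%). At an unadjusted p under 0.05 this fit had 949 lower (6.07%) and 637 higher genes (4.07%). The genes that fell were Fcrls, Folr1, Prlr, Spint1, Cx3cr1, Cst7, Fscn1, Kcnj13, Ncf1, Rasal3, Selplg, Msln, Slc29a4, Car12, Clec5a, Parvg and Tspan33, and those that rose were Car3, Lhx8, Penk and Gsta1. DESeq2, another count test, called 114 genes without the block (102 lower and 12 higher), of which 20 were among those 21, and limma-voom called 12. Each of the 21 genes missed the threshold under at least 1 of the alternatives tried, with a highest adjusted p between 0.299 (Fcrls) and 1.

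Calls near 0 do not by themselves bound the changes, so the 95% interval of each gene's log2 fold change was also read. It lay within 1 log2 unit of 0, a change of less than 2-fold either way, for 1751 genes (11.2%) without the block and 4088 (26.1%) with it. Leaving out 1 library moved the number of 1751 to 268 (day 21 replicate 1), 208 (day 21 replicate 2), 697 (day 60 replicate 1) or 361 (day 60 replicate 2). Among the 9693 genes with a mean of at least 10 CPM the median absolute log2 fold change was 0.32 and the median half-width of the interval 0.96, so most intervals were too wide to exclude a 2-fold change. Of these genes 439 had an estimate over 2-fold, 275 lower at day 60 and 164 higher. Across genes, log2 CPM correlated at 0.933 within day 21, at 0.892 within day 60, and between same-numbered libraries of the 2 times at 0.918 (replicate 1) and 0.954 (replicate 2). Between libraries of different number and time it was 0.905 (day 21 replicate 1 with day 60 replicate 2) and 0.883 (day 21 replicate 2 with day 60 replicate 1). The sham libraries correlated with these 4 at 0.710 to 0.770. The correlations between the times thus ran from below to above those between replicates, while all lay above those with sham.

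**Figure D1:**
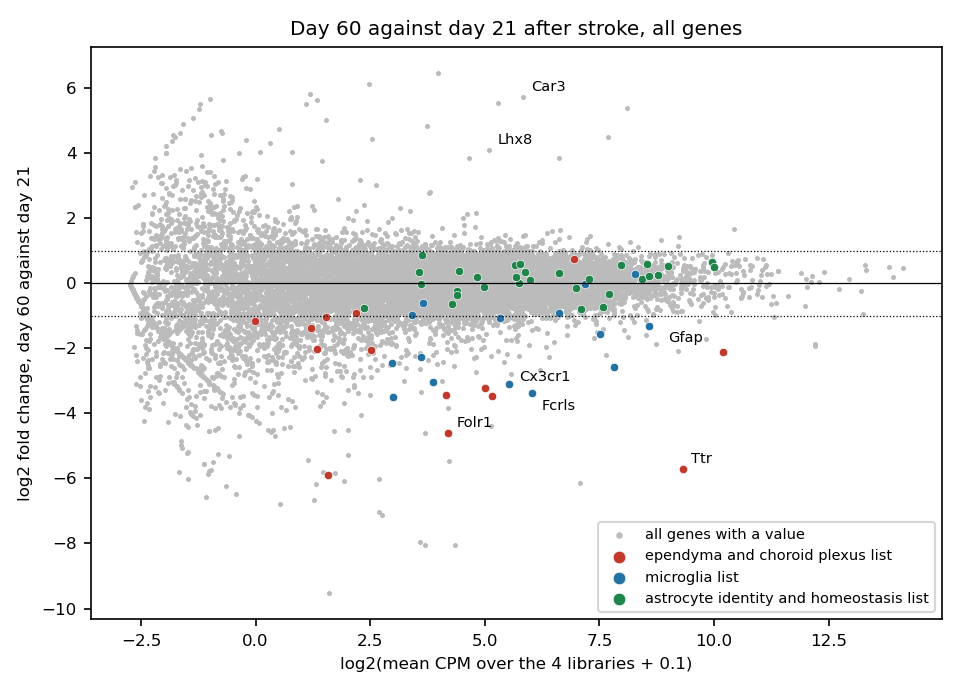
Log2 fold change of each gene, day 60 against day 21, by log2 of its mean CPM over the 4 libraries (offset 0.1); genes with 0 counts at one time are drawn at the bound set by 3 counts, and dotted lines mark a 2-fold change. Astrocyte identity genes (green, 30 genes) lie between -0.80 and 0.87, while most choroid plexus and ependyma (red) and microglia (blue) genes lie below -0.9.

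Transcripts of the choroid plexus and ependyma list were lower at day 60, more clearly so for the plexus genes. Of 14 listed genes, 13 had both day 60 libraries below both day 21 libraries, against 20.3% of all genes, and 8 had an unadjusted p under 0.05 in that direction, against 3.97%. These 8 were the plexus genes Ttr, Folr1, Kcnj13, Kl, Clic6, Enpp2 and Otx2, with Foxj1 the only gene of ciliated cells. Other ependymal members, such as Ccdc153 and Dynlrb2, were not among them. The median log2 fold change was -2.08, against -0.0008 over all genes. Ttr, transthyretin, the thyroid hormone carrier secreted by the choroid plexus, stood at 1055, 1454, 29.2 and 18.4 CPM. It was 52.7-fold lower by means (log2 fold change -5.72 ± 1.14, adjusted p = 0.241), and its 2 day 60 values also lay below the 281 and 632 CPM of sham.

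Folr1, the folate receptor of the plexus epithelium, stood at 32.9, 37.0, 1.37 and 1.47 CPM, a 24.6-fold lower mean (log2 fold change -4.61 ± 0.64, adjusted p = 0.0838). It fell with the block (adjusted p = 0.0232, with a range of 2.9e-22 to 0.506 over 22 alternatives). Kcnj13, an inward rectifier potassium channel of that epithelium, stood at 63.2, 52.7, 4.70 and 7.76 CPM and fell with the block as well (adjusted p = 0.0271, without it 0.19). In both genes the times were separated by far more than the distance between the replicates. Kl, the FGF23 co-receptor klotho, was at 79.4, 50.6, 5.61 and 6.22 CPM, and Clic6, an intracellular chloride channel protein, at 37.7, 26.9, 4.75 and 1.31 CPM. Enpp2, autotaxin, was at 1484, 2330, 217 and 661 CPM, and Foxj1, the factor of motile ciliated cells, at 4.42, 3.44, 0.974 and 0.943 CPM. Only Rarres2, chemerin, overlapped between the times, at 24.8, 159, 56.8 and 249 CPM.

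Otx2, the homeodomain factor that specifies the choroid plexus, was the listed gene with no count at day 60. It had 0 counts in both day 60 libraries and 6.05 and 5.51 CPM at day 21, at least 59.7-fold lower against a floor of 3 counts per library. The other genes of this paragraph and the next are not in the list. Prlr, the prolactin receptor (exons shared in part with a predicted gene on the same strand), went from 27.6 and 24.02 CPM to 0 counts in both, at least 266-fold lower, and fell with the block (adjusted p = 0.0232, range 1.4e-49 to 0.305). Car12, a membrane carbonic anhydrase, went from 30.9 and 16.9 CPM to 0 counts in both, at least 247-fold lower, and fell with the block (adjusted p = 0.0315, range 3.1e-47 to 0.356). No read was counted for these 3 genes at a depth where 3 counts per library equal a mean of 0.0968 CPM. Kcne2, a potassium channel subunit, was also at 0 counts at day 60 (18.6 and 8.24 CPM at day 21), as was Slc4a5, a bicarbonate transporter (12.04 and 13.4 CPM). Sostdc1, a secreted BMP and Wnt antagonist, was at 29.5, 19.7, 1.83 and 0.326 CPM, and Cldn2, a tight junction claudin of the plexus, at 16.4, 8.71, 0 and 0.312 CPM.

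Spint1, a membrane serine protease inhibitor, stood at 10.8, 7.27, 0.687 and 0.428 CPM and fell with the block (adjusted p = 0.0232), as did Slc29a4, a monoamine transporter, at 28.6, 31.0, 2.18 and 5.15 CPM (adjusted p = 0.0306). Msln, mesothelin, was low at day 21 (0.616 and 0.286 CPM) and at 0 counts at day 60, and fell with the block (adjusted p = 0.0306). The share of the choroid plexus and ependyma list in the counts at day 60, 0.0361% and 0.0862%, lay inside the range of sham and days 1 to 7. By this sum the day 21 libraries were the high ones, but Enpp2 and Rarres2 were its most abundant named members at day 60. Single genes differed. Ttr at day 60 lay below its 105 and 205 CPM of day 7, though within the 2.12 to 79.2 CPM of days 1 and 3. Car12, at 0 counts at day 60, was at 4.23 and 4.50 CPM at day 7. Spint1, Slc29a4 and Msln were not high at day 21 alone. Slc29a4 was at 24.7 and 35.6 CPM in sham, near its day 21 level. At day 3 Spint1 was at 14.9 and 15.5 CPM and Msln at 28.2 and 19.1 CPM, both above their day 21 levels. Whether choroid plexus and ependymal cells entered the day 21 sorts was not tested.

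**Figure D2:**
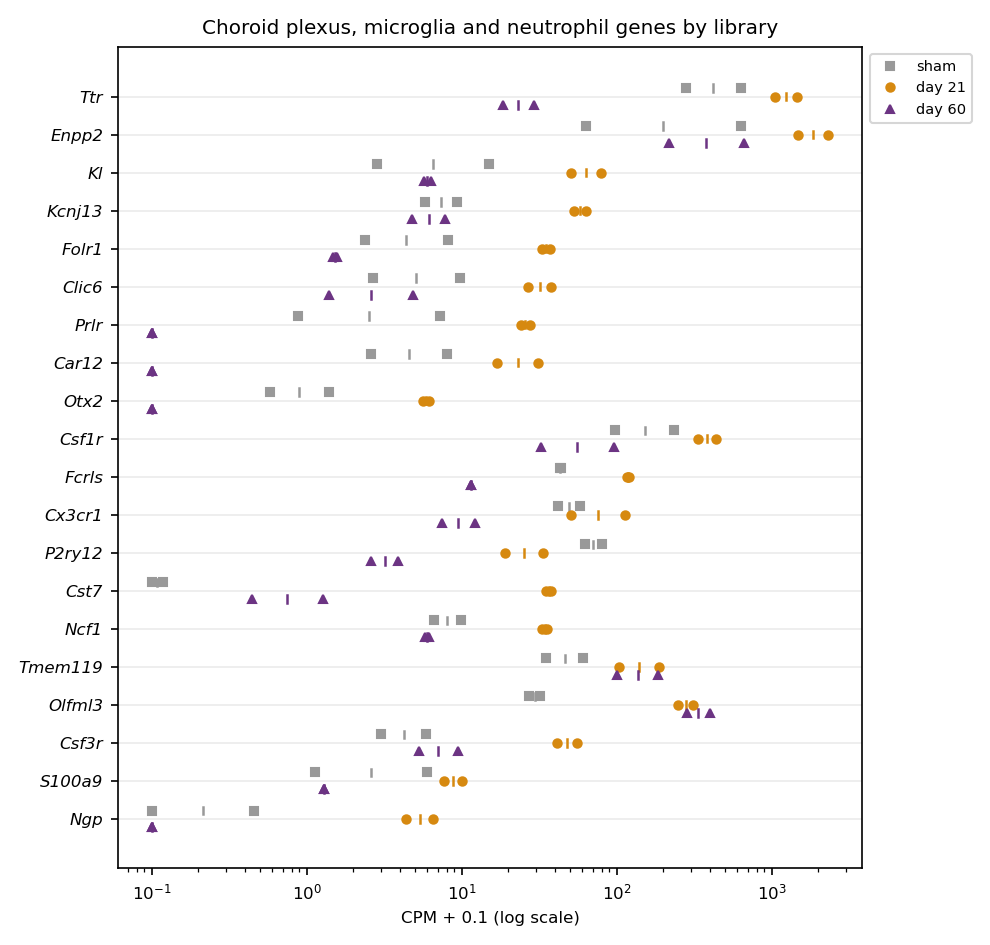
CPM (plus 0.1, log scale) of choroid plexus, microglia and neutrophil genes in each sham (squares), day 21 (circles) and day 60 (triangles) library, with ticks at geometric means. Day 60 triangles lie left of the day 21 circles in every gene shown except Tmem119 and Olfml3, and sham squares lie between the 2 or near day 60 for most plexus genes.

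Microglial genes were lower at day 60 as well. Of 15 listed genes 13 had both day 60 libraries below both of day 21 (20.3% of all genes did), 10 had an unadjusted p under 0.05 (3.97% of all genes), and the median log2 fold change was -1.57. The list's share of counts was 0.224% and 0.206% at day 21 against 0.111% and 0.0898% at day 60, where sham had 0.0726% and 0.0845%. None of its 15 members was at 0 in both day 60 libraries.

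Promoters of 3 myeloid genes are shown to set their sequences beside the values below (Fcrls and Cst7 fell with the block, and P2ry12 was lower without passing): Fcrls at chr3:87263475-87263774 (minus strand), P2ry12 at chr3:59262936-59263235 (minus strand) and Cst7 at chr2:150570165-150570464 (plus strand). They are RefSeq sequences of GRCm38.p6, 250 bases before to 50 after the start, and capitals mark a match to AGGAAGT or its reverse complement ACTTCCT, a core of sites for SPI1 (PU.1), the myeloid ETS factor, searched on both strands. The match begins 75, 52 and 63 bases before the start site. The letters occur in 9.35% of 32851 promoters and in 3 of the 9 microglia list genes with an entry (Fcrls, P2ry12 and Sall1), but also in 2 of the 7 ependyma and choroid plexus list genes with an entry (Ccdc153 and Dynlrb2), and a match is a description of letters only. Cst7 is not in that list and was chosen after its values were seen.
Fcrls: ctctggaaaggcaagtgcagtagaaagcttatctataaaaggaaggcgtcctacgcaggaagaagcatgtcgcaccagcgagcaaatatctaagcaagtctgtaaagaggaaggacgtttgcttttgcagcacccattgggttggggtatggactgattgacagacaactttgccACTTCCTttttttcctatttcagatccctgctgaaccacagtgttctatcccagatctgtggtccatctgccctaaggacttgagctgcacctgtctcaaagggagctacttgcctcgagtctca
P2ry12: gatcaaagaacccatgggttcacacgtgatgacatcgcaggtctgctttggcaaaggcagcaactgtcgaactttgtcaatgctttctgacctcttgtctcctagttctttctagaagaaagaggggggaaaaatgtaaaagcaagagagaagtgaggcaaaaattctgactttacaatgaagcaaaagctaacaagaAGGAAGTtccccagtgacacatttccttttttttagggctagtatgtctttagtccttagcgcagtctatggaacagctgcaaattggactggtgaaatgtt
Cst7: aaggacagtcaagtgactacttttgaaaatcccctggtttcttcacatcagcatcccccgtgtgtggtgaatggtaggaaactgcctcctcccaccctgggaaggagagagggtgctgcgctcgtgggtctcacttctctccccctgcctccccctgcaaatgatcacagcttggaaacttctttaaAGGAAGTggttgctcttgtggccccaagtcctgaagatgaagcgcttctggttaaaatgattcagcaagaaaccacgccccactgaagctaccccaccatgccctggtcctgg

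Fcrls, an Fc receptor-like scavenger receptor of resident microglia (chr3:87250758-87263738, mm10, minus strand), stood at 117, 119, 11.3 and 11.4 CPM. The replicates were almost equal at each time, and the mean was 10.4-fold lower at day 60 (log2 fold change -3.38 ± 0.40, adjusted p = 0.0838). It fell with the block (adjusted p = 0.0112, range 2.6e-18 to 0.299 over 22 alternatives). Cx3cr1, the fractalkine receptor, stood at 113.6, 50.9, 12.1 and 7.34 CPM (log2 fold change -3.08 ± 0.73, adjusted p = 0.445) and fell with the block (adjusted p = 0.0232, range 1.5e-13 to 1). P2ry12, the ADP receptor of ramified microglia, stood at 33.2, 19.0, 2.52 and 3.81 CPM and did not pass in either fit (adjusted p = 0.213, with the block 0.0742, range 5.5e-10 to 0.981). Its exons overlap Med12l on the opposite strand, and strand use in the counting is not given. Exons of Kcnj13, Rarres2, Csf1r, Ncf1, Glul, Stat3, Col4a1, Col4a2 and Dbp likewise overlap a gene on the opposite strand. All 3 genes were below their sham levels at day 60: Fcrls at 43.6 and 43.2, Cx3cr1 at 57.9 and 41.6, and P2ry12 at 80.5 and 62.4 CPM in sham.

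Csf1r, the receptor for the growth factors that microglia need, was at 333, 437, 32.3 and 96.5 CPM. Siglech, a sialic acid lectin, was at 14.7, 11.4, 2.98 and 1.84 CPM, and P2ry13, a second ADP receptor, at 20.5, 8.50, 0 and 2.36 CPM. The complement gene C1qa was at 306, 242, 128 and 56.1 CPM. The list did not move as one. Tmem119, a microglial membrane protein, was at 188, 103, 186 and 101 CPM (log2 fold change -0.02 ± 0.55), and Olfml3, a secreted matrix protein, at 313, 251, 399 and 285 CPM (log2 fold change 0.28 ± 0.34).

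Cst7, Ncf1, Rasal3 and Fscn1 are in none of the cell marker lists. Cst7 was named for the size of its shift and the other 3 after their values were seen. Cst7, cystatin F, an endolysosomal protease inhibitor of activated myeloid cells, stood at 34.9, 37.8, 0.344 and 1.17 CPM against 0 and 0.0192 CPM in sham (log2 fold change -5.48 ± 0.74, adjusted p = 0.0838). It fell with the block (adjusted p = 0.0247, range 4.9e-29 to 0.305). Ncf1, a cytosolic subunit of the phagocyte NADPH oxidase, stood at 33.1, 35.4, 5.73 and 6.06 CPM (log2 fold change -2.54 ± 0.37, adjusted p = 0.0838) and fell with the block (adjusted p = 0.0289). Rasal3, a Ras GTPase-activating protein of blood cells, stood at 18.7, 25.2, 1.72 and 2.55 CPM and fell with the block (adjusted p = 0.0289). In Ncf1 and Rasal3 the replicates were close and the times far apart. The day 60 replicates of Cst7 were less close, at 6 and 162 counts, but both lay far below day 21. Fscn1, the actin bundler fascin, stood at 98.4, 97.3, 26.3 and 26.6 CPM (log2 fold change -1.89 ± 0.29, adjusted p = 0.101, with the block 0.0247).

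Selplg, the P-selectin ligand of leukocytes, stood at 77.9, 47.8, 17.8 and 11.96 CPM, and Clec5a, a myeloid lectin receptor, at 9.13, 7.29, 1.32 and 1.26 CPM. Parvg, a leukocyte parvin, stood at 16.02, 16.8, 2.81 and 2.60 CPM, and Tspan33, a tetraspanin, at 20.7, 20.6, 2.69 and 3.88 CPM. These 4 genes fell with the block (adjusted p = 0.0306, 0.0329, 0.0329 and 0.0331). Itgam, the integrin CD11b (exons shared in part with a predicted gene), was at 60.2, 84.5, 2.98 and 23.9 CPM, and the co-stimulator Cd86 at 14.0, 12.1, 3.21 and 3.73 CPM. Neither passed (adjusted p = 0.832 and 0.772).

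Of the 10 measured neutrophil genes 9 were lower in both day 60 libraries (20.3% of all genes) and 7 were lower at an unadjusted p under 0.05 (3.97%), with a median log2 fold change of -2.87. S100a9, a calgranulin subunit, was at 7.56, 9.98, 1.203 and 1.196 CPM, and S100a8, its partner, at 4.82, 3.40, 0.687 and 0.479 CPM. Csf3r, the G-CSF receptor, was at 41.3, 55.2, 5.21 and 9.35 CPM. The granule genes Camp (1.34 and 1.83 CPM at day 21) and Ngp (6.44 and 4.30 CPM) had 0 counts in both day 60 libraries, and Ltf, lactoferrin, was at 4.98, 7.68, 0 and 0.174 CPM. Elane, neutrophil elastase, rested on 1 library, at 0.336, 80.0, 0.458 and 0 CPM. The list's share of counts was 0.00929% and 0.0162% at day 21 and 0.000926% and 0.00147% at day 60. The share of day 21 replicate 2 rests in good part on Elane, with 8938 counts there.

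Macrophage and monocyte markers did not share this shift in full. Of 15 listed genes 6 were lower in both day 60 libraries and 3 higher (20.3% and 17.5% of all genes), 1 and 2 at an unadjusted p under 0.05 (3.97% and 1.45%), with a median log2 fold change of -0.51. The 1 lower gene was Fn1, which is given below with the matrix genes. Log2 fold changes in the list ran from -2.33 to 4.90. Cd5l, a scavenger receptor-like protein of tissue macrophages, was higher at day 60, at 46.2, 36.8, 133.6 and 48.6 CPM (log2 fold change 1.13 ± 0.50, adjusted p = 0.92). The difference rested mainly on day 60 replicate 1. Of 14 measured lymphocyte genes 2 were lower in both day 60 libraries and 4 higher (20.3% and 17.5% of all genes), with a median of 0.50. Endothelial, neuronal and oligodendrocyte lists had medians of 0.01, 0.02 and -0.24.

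**Figure D3:**
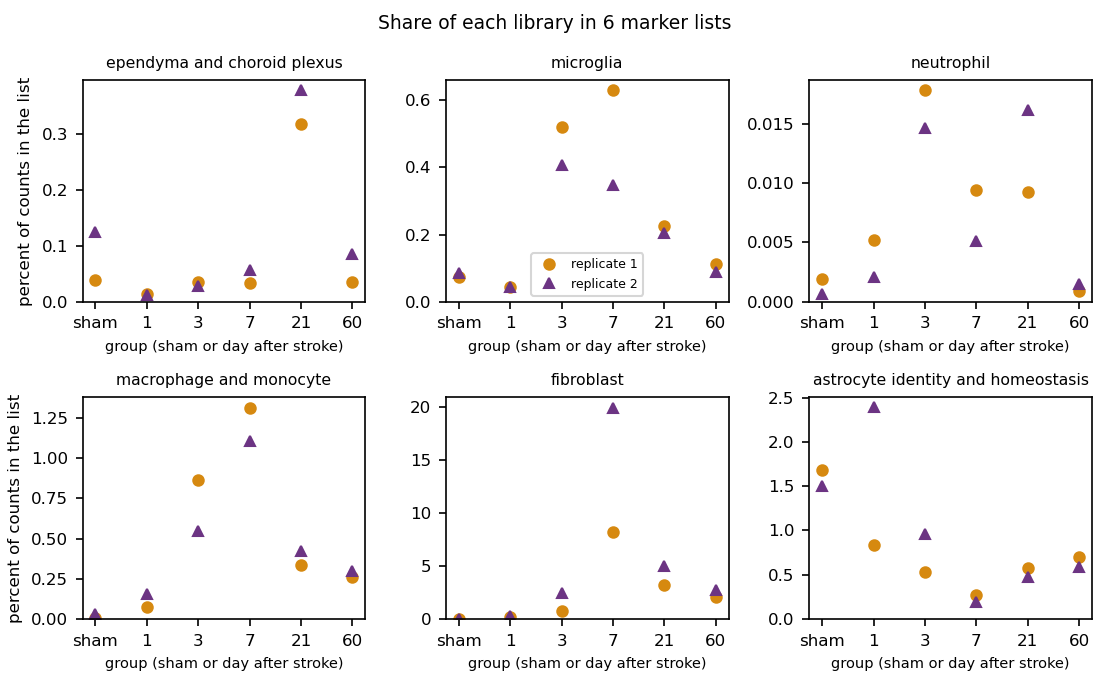
Percent of all counts taken by 6 marker lists in each of the 12 libraries, by group (sham and days after stroke), with circles for replicate 1 and triangles for replicate 2. The choroid plexus list is high only at day 21 (0.318% and 0.378%), and the microglia list is lower at day 60 (0.111% and 0.0898%) than at day 21.

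Astrocyte identity genes gave little sign of a shift, but the interval of only 1 of the 30 lay within 1 log2 unit of 0 (11.2% of all genes). A 2-fold change was thus not excluded for the others. Of the 30 listed genes 9 were higher in both day 60 libraries (17.5% of all genes were), 3 were lower (20.3%), none had an unadjusted p under 0.05 in either direction, and the median log2 fold change was 0.19. Aldh1l1, a folate enzyme used to mark astrocytes, was at 50.1, 71.1, 51.8 and 78.5 CPM. Slc1a3, the glutamate transporter GLAST, was at 380, 284, 339 and 383 CPM, and Slc1a2, the transporter GLT-1, at 258, 146, 452 and 150 CPM. All 3 genes overlapped between the times. Aqp4, the water channel of astrocyte endfeet, was at 28.5, 16.8, 23.2 and 14.9 CPM, and Sox9, an astrocyte transcription factor, at 148, 120, 126 and 114 CPM. Glul, glutamine synthetase, was at 386, 421, 502 and 460 CPM (log2 fold change 0.25 ± 0.42), and Aldoc, a glycolytic aldolase, at 680, 874, 1155 and 1281 CPM (log2 fold change 0.65 ± 0.68). Aldoc and Aldh1l1 were still far below sham at day 60, where they stood at 5275 and 5248 CPM and at 149 and 243 CPM.

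Gfap, a filament protein used as a marker of reactivity, stood at 691, 646, 186 and 178 CPM, a 3.68-fold lower mean at day 60 (log2 fold change -1.88 ± 0.63, unadjusted p = 0.0138). The day 60 values were close to the 161 and 175 CPM of sham, yet Gfap did not pass over all genes (adjusted p = 0.844, with the block 0.369, range 9.6e-08 to 1, passing in 1 of 22 alternatives, the block in the 4 libraries only). Serpina3n, a secreted serpin, was at 14.6, 18.6, 2.86 and 7.93 CPM, and Osmr, the oncostatin M receptor, at 262, 221, 63.9 and 140.2 CPM. Both were lower in both libraries without passing (adjusted p = 0.92 and 0.741). Of the 13 pan-reactive genes 6 were lower in both libraries and 2 higher (20.3% and 17.5% of all genes), 3 and 0 at an unadjusted p under 0.05 (3.97% and 1.45%), with a median log2 fold change of -0.30. Vim, vimentin, lay the other way, at 402, 459, 665 and 539 CPM.

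Lcn2, C3, Serping1, Spp1, Apod and Apoe, all abundant secreted products, overlapped between the times, while other secreted genes such as Cxcl13 and Lum did not. Lcn2, lipocalin-2, was at 1344, 2113, 1354 and 1498 CPM, against 4.30 and 5.51 in sham. C3, the central complement component, was at 3611, 6280, 3005 and 7265 CPM, against 0.538 and 0.462 in sham, and Serping1, the C1 inhibitor, at 6869, 7500, 5677 and 7100 CPM, against 19.5 and 18.4 in sham. In each gene all 4 libraries stood far above sham. Spp1, osteopontin, was at 2027, 1982, 2334 and 1891 CPM, Apod, apolipoprotein D, at 8467, 11912, 8988 and 8426 CPM, and Apoe, apolipoprotein E, at 13993, 16135, 29175 and 12485 CPM. Among the 34 landmark genes of reactivity and identity, B2m, the light chain of class I molecules, was the only one with an interval within 1 log2 unit of 0 (1374, 1441, 1439 and 1462 CPM, log2 fold change 0.04, interval -0.83 to 0.92). The interval of C3 ran from -1.92 to 2.02 and that of Lcn2 from -1.22 to 0.66, so a change of 2-fold was not excluded for either. The complement gene C4a was at 0.056, 24165, 0.344 and 34011 CPM, a difference between replicates at both times, and it has a near-identical neighbour copy in C4b, so neither gene's level is read here.

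Of 29 measured cytokine and chemokine genes 17 were lower in both day 60 libraries and 3 higher (20.3% and 17.5% of all genes). The list's summed share of counts was not lower, at 1.23% and 0.708% at day 21 and 1.37% and 0.79% at day 60. At an unadjusted p under 0.05, 7 were lower and 1 higher (3.97% and 1.45% of all genes), with a median log2 fold change of -0.70. Cxcl5, a neutrophil attractant, stood at 486, 358, 147 and 121 CPM (log2 fold change -1.65 ± 0.47, adjusted p = 0.633). Il1b was at 74.9, 80.8, 20.3 and 28.8 CPM, Il1a at 16.8, 14.3, 4.41 and 3.07 CPM, and Ccl3, a chemokine for monocytes and other leukocytes, at 25.3, 24.4, 6.07 and 5.50 CPM. These 4 genes did not overlap between the times and none passed. Ccl2, the monocyte attractant, was at 94.1, 95.7, 57.2 and 41.2 CPM. Cxcl13, the B cell attractant, was 1 of the 3 higher genes, at 358, 294, 1023 and 727 CPM (log2 fold change 1.42 ± 0.60, adjusted p = 0.92) against 0.0597 and 0 CPM in sham. Microglia and neutrophil markers moved with these genes (13 of 15 and 9 of 10 lower in both libraries), and their part in the cytokine values was not tested.

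Of 24 JAK-STAT3 and NF-kB regulators 11 were lower in both day 60 libraries and 0 higher (20.3% and 17.5% of all genes), and 3 were lower at an unadjusted p under 0.05 (3.97% of all genes), with a median of -0.44. Il6ra, the IL-6 receptor, was at 13.8, 15.4, 6.87 and 4.21 CPM, and Nfkbiz, an inducible NF-kB cofactor, at 174, 192, 60.6 and 98.4 CPM. Stat3 itself overlapped, at 393, 531, 277 and 455 CPM. Of 22 TGF-beta and BMP genes 6 were lower in both day 60 libraries and 4 higher (20.3% and 17.5% of all genes). At an unadjusted p under 0.05, 3 were lower and 0 higher (3.97% and 1.45% of all genes). Their median log2 fold change was -0.01, with values from -1.42 to 3.22. Among the lower ones, Tgfb1 was at 25.5, 29.8, 16.7 and 11.4 CPM and Bmp7, a BMP ligand, at 76.5, 70.6, 19.6 and 35.4 CPM. Both did not pass (adjusted p = 0.85 and 0.634).

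Of 24 collagen and interstitial matrix genes 11 were lower in both day 60 libraries and 1 higher (20.3% and 17.5% of all genes). At an unadjusted p under 0.05, 4 were lower and 0 higher (3.97% and 1.45% of all genes), with a median log2 fold change of -0.51. Col1a1, the main fibrillar collagen chain, was at 4114, 10866, 1061 and 2871 CPM (log2 fold change -1.93 ± 1.28, adjusted p = 0.946), and Col3a1 at 4372, 10460, 1039 and 2994 CPM. The replicates of each time differed by more than 2-fold in both genes. Col4a1, a basement membrane collagen, was at 864, 1916, 227 and 615 CPM, and its head-to-head neighbour Col4a2 at 402, 700.2, 142 and 224 CPM. Fn1, fibronectin, was at 939, 1319, 341 and 673 CPM, and Lox, a collagen cross-linking oxidase, at 458, 310.02, 99.7 and 186 CPM. Thbs1, a secreted thrombospondin, was at 254, 226, 67.0 and 146 CPM. The small proteoglycans did not share this: Dcn, decorin, was at 5921, 8991, 7202 and 9309 CPM and Lum, lumican, at 2246, 1398, 2664 and 2505 CPM. Of 14 fibroblast markers 6 were lower in both libraries and 1 higher (20.3% and 17.5% of all genes), with a median of -0.52 and none at 0. The fibroblast and matrix lists share members, Col1a1 and Lum among them, so the 2 lists are not separate evidence. The part of fibroblasts in the matrix values was not tested.

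**Figure D4:**
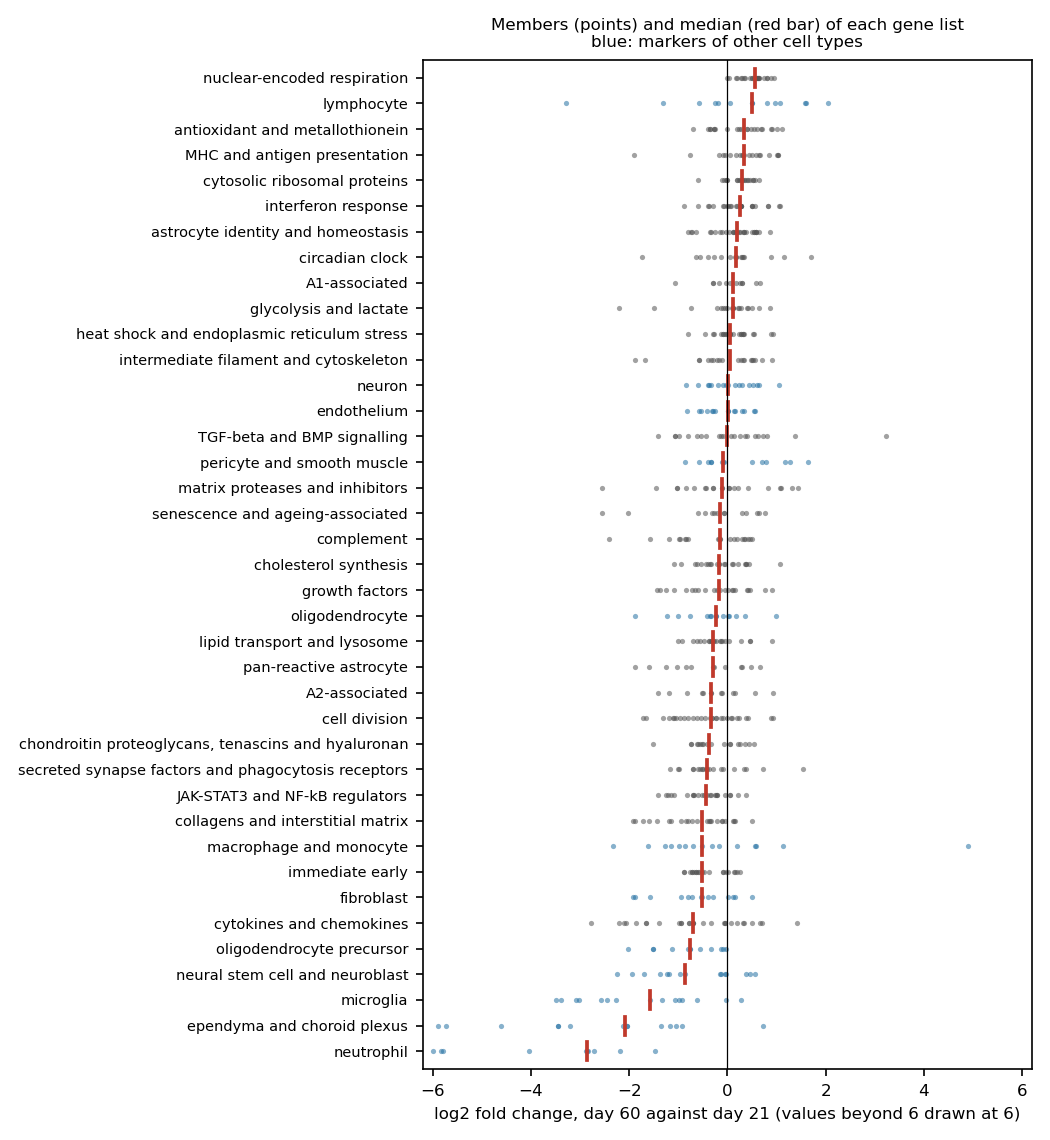
Log2 fold change, day 60 against day 21, of each member (points) of 39 gene lists with the list's median (red bar), ordered by median; blue lists are markers of other cell types, and genes with 0 counts at one time are drawn at their bound. The neutrophil (-2.87), choroid plexus and ependyma (-2.08) and microglia (-1.57) lists have the lowest medians and nuclear-encoded respiration (0.57) the highest.

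Of 20 MHC and antigen presentation genes 9 were higher in both day 60 libraries and 3 lower (17.5% and 20.3% of all genes), with a median log2 fold change of 0.34. The member with an unadjusted p under 0.05 was Cd86, which was lower. The class II chain H2-Ab1 was at 166, 234, 458 and 343 CPM, H2-Eb1 at 72.9, 107, 205 and 161 CPM and H2-Aa at 103, 109, 221 and 161 CPM, and the class II chaperone Cd74 at 584, 1015, 1133 and 1273 CPM. None passed (adjusted p = 0.946, 0.943, 0.95 and 0.95), and sham held under 1 CPM of the 3 chains. Of 28 interferon response genes 6 were higher and 1 lower in both libraries, with a median of 0.26, so the number higher was near the 17.5% of all genes. At an unadjusted p under 0.05, 2 of them were higher and 0 lower (1.45% and 3.97% of all genes). Ifit3, an antiviral effector, was at 201, 128, 362 and 319 CPM and Usp18, the ISG15 protease that restrains interferon signalling, at 60.3, 80.9, 112 and 138 CPM.

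The respiration list had the highest median of all lists. Of 24 nuclear-encoded subunits 16 were higher in both day 60 libraries (17.5% of all genes were), 0 were lower and none had an unadjusted p under 0.05, with a median log2 fold change of 0.57. Ndufb8, a complex I subunit (exons shared in part with a predicted gene), was at 55.1, 80.7, 141 and 119.8 CPM, against 563 and 519 in sham. Of 22 antioxidant genes 9 were higher in both libraries and 3 lower (17.5% and 20.3% of all genes), 2 and 1 at an unadjusted p under 0.05 (1.45% and 3.97%). Nqo1, the quinone reductase of the NRF2 response, was at 35.8, 32.6, 74.8 and 73.7 CPM (log2 fold change 1.12 ± 0.31, adjusted p = 0.608), and Gsta4, a glutathione transferase, at 39.5, 58.1, 109 and 86.9 CPM. Fth1, ferritin heavy chain, was at 6529, 9641, 12003 and 12107 CPM, and Sod2, the mitochondrial dismutase, lay the other way at 181, 167, 115 and 99.8 CPM.

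Of the genes higher at day 60, 4 passed with the block. Car3, carbonic anhydrase III, an enzyme abundant in muscle and fat, stood at 1.12, 3.01, 111 and 112 CPM, a 53.98-fold higher mean (log2 fold change 5.72 ± 1.03, adjusted p = 0.189). It rose with the block (adjusted p = 0.0278, range 1.4e-40 to 1). Lhx8, a LIM homeodomain factor of forebrain cholinergic neurons, stood at 3.75, 3.77, 52.5 and 77.0 CPM, 17.2-fold higher (log2 fold change 4.11 ± 0.50, adjusted p = 0.101), and rose with the block (adjusted p = 0.0329, range 4.5e-21 to 0.898). Penk, the enkephalin precursor, stood at 11.5, 8.89, 53.4 and 37.8 CPM, 4.47-fold higher (log2 fold change 2.16 ± 0.37, adjusted p = 0.145), and rose with the block (adjusted p = 0.0329, range 1.8e-06 to 1). In these 3 genes both day 60 libraries were above both day 21 libraries and the sham libraries. Penk had been at 39.4 to 73.5 CPM in the 6 libraries of days 1 to 7, so its day 21 libraries were the low ones, whereas Car3 was at 0 to 0.621 CPM and Lhx8 at 0 in those libraries. Gsta1, a glutathione transferase, rose with the block on 1 library alone, day 60 replicate 2, where it was at 9.76 CPM with 0 counts in the other 3.

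Other genes were higher in both day 60 libraries without passing in either fit. Igj, the joining chain of secreted antibodies, was at 1.18, 0.636, 30.7 and 20.2 CPM (log2 fold change 4.84 ± 0.96, adjusted p = 0.239, with the block 0.0779, range 4.5e-22 to 1), and Wif1, a secreted Wnt inhibitor, at 3.75, 3.09, 25.3 and 22.99 CPM (adjusted p = 0.405). Tmem178, a membrane protein, was at 9.97, 8.35, 40.8 and 33.0 CPM, and Slc16a11, a monocarboxylate transporter family member, at 12.4, 12.9, 50.9 and 33.2 CPM. At day 60 both lay above their sham levels of 28.97 and 23.7 CPM (Tmem178) and 6.69 and 4.77 CPM (Slc16a11). Asgr1, an asialoglycoprotein receptor chain, was at 6.55, 11.5, 44.6 and 34.6 CPM, Akr1c19, an aldo-keto reductase, at 1.74, 4.04, 12.3 and 16.9 CPM, and Lrrc4, a synaptic adhesion protein, at 3.81, 2.49, 5.90 and 17.2 CPM, where sham had 24.2 and 15.8 CPM of Lrrc4. Adam7, a metalloprotease family member, was at 0.224, 0.107, 5.21 and 16.3 CPM.

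**Figure D5:**
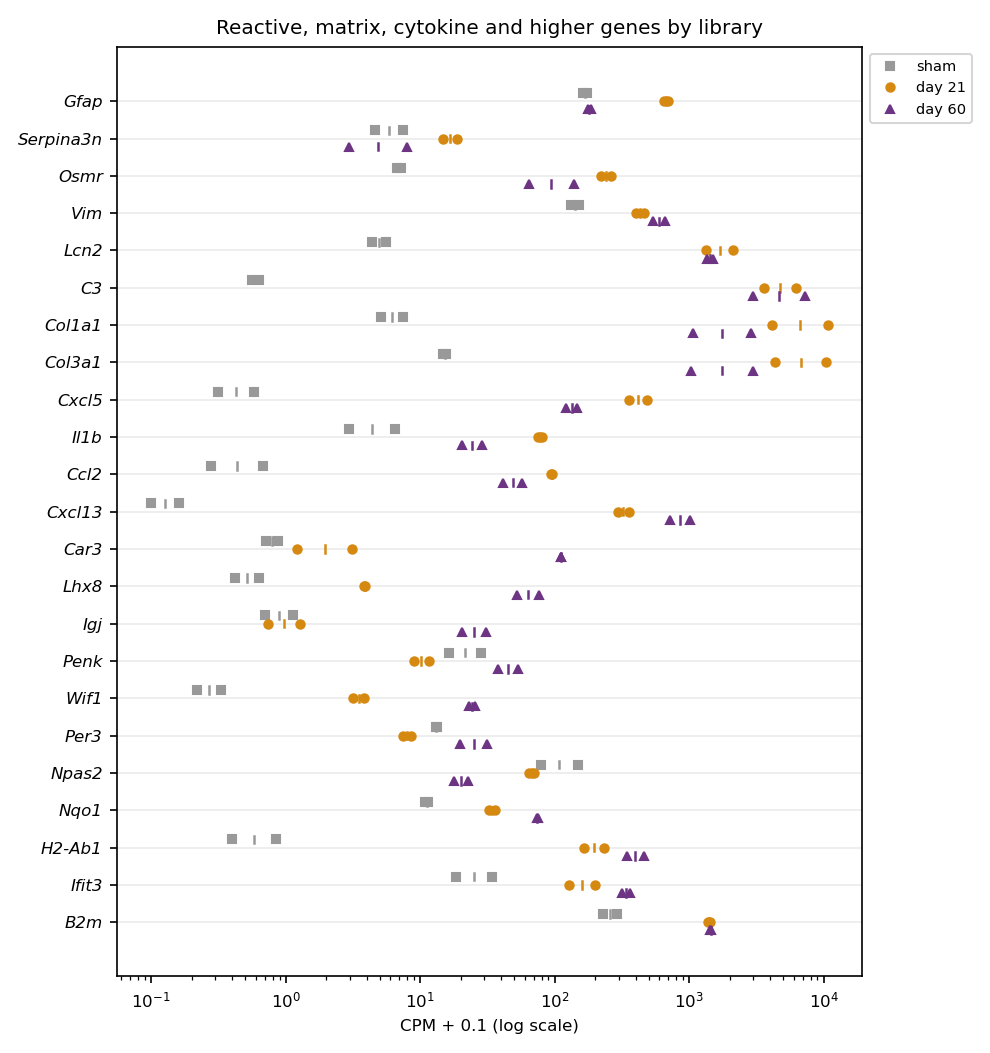
CPM (plus 0.1, log scale) of reactive, matrix, cytokine and antigen presentation genes and of genes higher at day 60, in each sham (squares), day 21 (circles) and day 60 (triangles) library, with ticks at geometric means. Gfap at day 60 sits at its sham level, Lcn2, C3 and B2m overlap between day 21 and day 60 far above sham, and Car3, Lhx8, Igj and Wif1 are higher at day 60.

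Of 17 measured clock genes 5 were higher in both day 60 libraries and 4 lower (17.5% and 20.3% of all genes). At an unadjusted p under 0.05, 1 was higher and 1 lower (1.45% and 3.97% of all genes). Per3, a repressor of the molecular clock, was at 8.40, 7.38, 31.3 and 19.7 CPM (log2 fold change 1.69 ± 0.40, adjusted p = 0.445) and Dbp, a clock output factor, at 18.7, 35.6, 54.4 and 66.5 CPM. Npas2, an activator of the clock, was at 64.6, 70.3, 17.7 and 22.6 CPM, and Arntl, its partner BMAL1, at 44.3, 46.1, 23.7 and 34.3 CPM. The hour of collection is not given in the sources used here, so hour and day after stroke cannot be told apart.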

How the data were processed

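RNA sequencing libraries of FACS-sorted cortical astrocytes were compared (day 60 against day 21, 2 libraries each, grouped by their labels). The authors deposited raw counts per gene symbol. The submitters' processing notes name HTSeq 0.6.1, Bowtie2 2.3.4.2 and mm10, and the annotation, strand setting and treatment of multiply mapped reads are not given in the sources used here.

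All 12 libraries were fitted in edgeR 4.0.16 (R 4.3.3) with TMM scaling, a coefficient per group and filterByExpr (minimum count 10), which kept 15635 of 15774 genes and left 6 residual degrees of freedom. Changed means a Benjamini-Hochberg adjusted p under 0.05, and every adjusted p is from this quasi-likelihood F test unless a tool is named. Values after ± are standard errors. An exact permutation test of 2 libraries against 2 cannot go below 0.333. The deviation of replicate 2 from replicate 1 correlated over 0.1 for 15 of 15 pairings of groups (lowest 0.319, highest 0.713). The fit was therefore repeated with the replicate number as a block. In every group replicate 2 was 6.3 to 9.63 times as deep as replicate 1. Pairing of samples and a shared difference in depth or handling thus cannot be told apart. Other alternatives were DESeq2 1.42.0, limma-voom (limma 3.58.1), scalings, filters, thinning of replicate 2, the 4 libraries alone and leaving out each library. A fit of the 4 libraries alone leaves 2 residual degrees of freedom, and fewer with the block. Its estimate of the spread is thus poorly determined, and low ends of ranges that come from it carry little weight. The scripts were tested on simulated data. Floors cover counting error only.

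The comparison, 39 gene lists and 34 landmark genes were chosen with earlier results of these data known, and 15 list entries were not in the files. The naming rule took, among genes with unadjusted p under 0.05, non-overlapping libraries and 10 CPM or more in one group, the 12 largest shifts and the 4 smallest p each way, the landmark genes, the 12 most abundant genes and up to 4 members per list. Genes outside it, such as those changed only with the block, Tmem119, Olfml3, Siglech, Foxj1, Elane, Il1b, the class II genes and Dbp, were chosen after their values were seen. Of 117 genes in the text, 117 matched GENCODE, 3 share exons with a gene on the same strand and 10 with one on the opposite strand.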

Additional observations from a re-analysis of the deposited data

How the results depend on the processing

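The count of changed genes, 0 with edgeR, remained 0 under DESeq2 size factors, upper quartile scaling, both other filters and thinning of replicate 2. It was 114 under DESeq2, 12 under limma-voom, 5 with the 4 libraries only, 21 with the replicate block and 441 with the block in the 4 libraries only, and 0 to 2 on leaving out each library. The genes at an unadjusted p under 0.05 numbered 1586 with the replicate block, 2109 with the block in the 4 libraries only, and 388 to 1445 on leaving out each library. Intervals within 1 log2 unit of 0 numbered 4088, 4947 and 208 to 2036 in the same order. Of the limma-voom calls 7 were among the 21 of the block, and of the block's calls in the 4 libraries only 19 were. The causes of these moves were not tested.

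Of 117 genes in the text 101 kept their direction under every alternative run. The sign reversed for Tmem119 under DESeq2 (0.0064) and under its size factors (0.0064), and for C3 under limma-voom (-0.0315) and the block in the 4 libraries only (-0.0258). On leaving out each library the log2 fold change ran from -0.23 to 0.38 for Aldh1l1, -0.44 to 0.0391 for Apod, -0.29 to 0.95 for Apoe, -0.63 to 0.19 for Aqp4, -0.72 to 0.54 for C3, -15.09 to 18.16 for C4a, -0.11 to 0.48 for Dcn and -0.56 to 0.0839 for Lcn2. It ran from -0.0113 to 0.50 for Olfml3, -0.70 to 2.62 for Rarres2, -0.46 to 1.16 for Slc1a2, -0.0729 to 0.35 for Slc1a3, -0.30 to 0.0147 for Sox9, -0.11 to 0.22 for Spp1 and -0.56 to 0.48 for Tmem119, and it was 0 for Gsta1 without day 60 replicate 2, which holds all its counts at the 2 times. The reversals came with the removal of one of the 4 libraries compared. The depth of replicate 1 limits low genes, since 3 counts there equal 0.168 CPM at day 21 and 0.172 CPM at day 60.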

Other observations

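Of 12 oligodendrocyte precursor genes 8 were lower in both day 60 libraries and 0 higher (20.3% and 17.5% of all genes), and 2 were lower at an unadjusted p under 0.05 (3.97% of all genes), with a median log2 fold change of -0.76. Sox10, the factor of the oligodendrocyte lineage, was at 8.01, 7.502, 2.41 and 1.44 CPM, and Bcas1, a marker of cells that are starting to make myelin, at 132, 119.8, 62.2 and 52.9 CPM. Neither passed (adjusted p = 0.844 and 0.85). Of 15 neural stem cell and neuroblast genes 7 were lower in both libraries and 1 higher (20.3% and 17.5% of all genes), with a median of -0.85, and Dlx2, a factor of ventral forebrain progenitors, was at 19.3, 16.9, 3.61 and 4.002 CPM. Sqle, the squalene epoxidase of cholesterol synthesis, was at 16.9, 17.1, 6.19 and 9.63 CPM, while its list of 22 genes had a median of -0.17. Cd44, the hyaluronan receptor, was at 32.9, 29.2, 16.7 and 20.4 CPM, and Sparcl1, an astrocyte matricellular protein, at 1085, 1068, 963 and 1065 CPM.

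Immediate early genes had a median of -0.51, with 7 of 21 lower in both libraries and 0 higher (20.3% and 17.5% of all genes), none at an unadjusted p under 0.05. Glycolysis and ribosomal protein lists had medians of 0.11 and 0.29, and cell division genes -0.34.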
